A study of Homo sapiens with 26 samples.

Results

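Expression of 10 genes that mark the mesenchymal state of neuroblastoma was measured by RNA sequencing in the MYCN-amplified human neuroblastoma cell line KELLY. The genes were PRRX1, TWIST1, SNAI2, ZEB1, ZEB2, YAP1, WWTR1, FN1, CD44 and NOTCH3, taken by symbol from the 26485 genes of the count tables. The cultured cells carried a doxycycline-inducible lentiviral vector with a green fluorescent protein marker that held no insert (F1HUTG, here EV) or 1 of 2 hairpins directed at RUNX1T1, sh4 and shAMB. Each of the 3 lines was grown for 72 h with doxycycline or DMSO and sequenced as 3 replicates per treatment, 18 libraries in all. Tumours of KELLY cells gave another 8 libraries, titled PDX and grown under the skin of female NOD SCID gamma mice, which lack lymphocytes. Of these, 4 were labelled WT with control food and 4 were labelled RUNX1T1 KO with doxycycline food, although the study describes hairpin knockdown in such tumours. The labels do not say which vector the tumour cells carried. For its RNA sequencing in vivo the paper names shRNA1, built on an Ambion sequence, and no label ties that name to shAMB. The label, the agent and the food cannot be told apart. Nothing states that replicates were separate transductions, so p-values measure the spread between these libraries, which may be technical.

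Neuroblastoma cells occur in interconvertible transcriptional states. Adrenergic cells carry the sympathetic neuroblast programme with HAND2 and GATA3, whereas mesenchymal cells resemble neural crest and migratory connective tissue cells, and are known for resistance to chemotherapy. PRRX1 is a homeobox factor that can drive adrenergic cells towards the mesenchymal state, and NOTCH3 is a receptor whose active form can do the same. TWIST1, SNAI2, ZEB1 and ZEB2 are repressors of epithelial genes that bind E-box DNA, YAP1 and WWTR1 are coactivators that the Hippo kinases hold out of the nucleus and that act through TEAD factors, FN1 is the matrix protein fibronectin, and CD44 is the receptor for hyaluronan.

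RUNX1T1 mRNA was not called lower in either hairpin line or in the tumours. It stood at 34.7, 33.3 and 35.0 CPM (a gene's reads relative to its library's total, after TMM correction) in the sh4 line with DMSO and at 31.2, 33.9 and 30.1 CPM with doxycycline, and its log2 fold change was -0.11 ± 0.05 (SE; adjusted p = 0.117 in edgeR). With shAMB it stood at 40.8, 42.0 and 39.9 CPM against 41.3, 44.1 and 42.2 CPM (log2 fold change 0.06 ± 0.05, adjusted p = 0.378). In the tumours the ranges were 30.0 to 43.1 CPM in controls and 24.3 to 35.2 CPM in those labelled knock-out (log2 fold change -0.23 ± 0.15, adjusted p = 0.229). In the EV line RUNX1T1 stood at 44.1, 39.3 and 42.4 CPM with DMSO and at 36.5, 37.8 and 38.6 CPM with doxycycline, without overlap (log2 -0.16, adjusted p = 0.672). The uninduced sh4 line was already below the uninduced EV line, also without overlap (log2 -0.29, adjusted p = 0.0144). The paper reports less RUNX1T1 protein in KELLY cells after induction of either of its hairpins. It also describes loss of RUNX1T1 staining in KELLY tumours after knockdown. The libraries hold RNA only, so a fall in protein could not be checked in them. Since the RNA values do not show the knockdown, all directions below are those of the library labels. Those in culture also rest on reading count columns headed Neg and Pos as DMSO and doxycycline. Total expected counts ran from 35115915 to 54736733 per culture library and from 47346063 to 62378060 per tumour library. The cells expressed adrenergic genes, 19 of which summed to 4157 to 5242 CPM in every culture library, led by CHGA (mean 1497 CPM in the EV line with DMSO). No reference cells of either state were set beside them. Among the cultures, sh4 doxycycline replicate 3 stood apart from the other 2 of its group, and results that rest on it are given without it. Tumour libraries of the same group differed more. In counts, control replicate 2 and knock-out replicate 1 differed most from the rest of their groups (chi-square per degree of freedom 160 to 248.2 and 118.1 to 185.9). The same measure was 45.9 and 62.72 for sh4 doxycycline replicate 3.

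The promoters of the markers that moved in opposite directions in the hairpin lines, YAP1, PRRX1 and FN1, are shown together with 1 of ZEB1, which holds the E-box that the ZEB and SNAI repressors prefer. Each is the 250 bases before a transcription start in RefSeq (GRCh38.p14), 5′ to 3′ on the gene's strand, at chr11:102110197-102110446 (plus) for YAP1, chr1:170663881-170664130 (plus) for PRRX1, chr2:215436069-215436318 (minus) for FN1 and chr10:31318966-31319215 (plus) for ZEB1. The PRRX1 and ZEB1 windows shown lie inside the genes, which begin at chr1:170662768 and chr10:31318417. The bases before the PRRX1 gene start were not examined. Capitals mark every match on either strand to CACGTG (the E-box of MYC and MYCN), CAGGTG (the E-box of ZEB and SNAI factors) or GGAATG (the core of a TEAD site).
YAP1: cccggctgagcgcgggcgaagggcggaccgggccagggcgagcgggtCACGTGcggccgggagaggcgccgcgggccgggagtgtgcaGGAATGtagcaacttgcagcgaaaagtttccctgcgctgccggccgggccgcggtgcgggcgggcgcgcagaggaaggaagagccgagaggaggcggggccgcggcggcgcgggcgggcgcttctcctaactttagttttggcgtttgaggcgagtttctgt
PRRX1: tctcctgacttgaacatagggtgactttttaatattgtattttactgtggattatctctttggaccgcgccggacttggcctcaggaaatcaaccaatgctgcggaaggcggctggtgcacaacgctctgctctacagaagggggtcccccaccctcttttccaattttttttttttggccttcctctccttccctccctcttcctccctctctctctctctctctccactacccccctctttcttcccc
FN1: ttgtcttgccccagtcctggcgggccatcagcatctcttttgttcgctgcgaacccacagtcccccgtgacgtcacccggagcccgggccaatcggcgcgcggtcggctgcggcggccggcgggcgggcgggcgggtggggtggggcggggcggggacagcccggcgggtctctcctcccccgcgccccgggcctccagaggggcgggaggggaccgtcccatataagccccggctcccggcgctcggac
ZEB1: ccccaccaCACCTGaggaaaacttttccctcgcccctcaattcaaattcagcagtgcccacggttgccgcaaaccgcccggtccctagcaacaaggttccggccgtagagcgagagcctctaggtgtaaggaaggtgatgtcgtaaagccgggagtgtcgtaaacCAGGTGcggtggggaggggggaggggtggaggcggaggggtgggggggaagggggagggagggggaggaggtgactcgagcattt
The YAP1 window held 1 CACGTG that began 203 bases before the start and 1 GGAATG that began 162 bases before it. The ZEB1 window held CAGGTG or its reverse complement at 242 and 85 bases before the start, and another of the 7 listed ZEB1 windows held 1 more. None of these letters stood in the listed windows of PRRX1, FN1, CD44, ZEB2, NOTCH3 or WWTR1, and no promoter was at hand for TWIST1 or SNAI2. Among the 35116 listed promoters, 6.34% held CACGTG, 17.5% CAGGTG and 11.9% GGAATG in a window of this length, so that a match describes the sequence and not a bound site.

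The markers differed widely in level. On the TPM scale, which the authors corrected for gene length, TWIST1 and ZEB1 led in the EV line with DMSO, at 63.7 ± 1.37 and 63.0 ± 4.87 TPM (SD, n = 3), and their replicates overlapped. FN1 followed at 17.3 ± 0.819 TPM, ZEB2 at 11.1 ± 0.659 TPM, CD44 at 4.12 ± 0.420 TPM and YAP1 at 2.67 ± 0.180 TPM, and no neighbours among these overlapped. SNAI2, NOTCH3 and PRRX1 lay between 1.25 and 1.63 TPM and each overlapped the next in order, while WWTR1 stood at 0.0167 TPM. WWTR1 had 0 to 12 reads per culture library and 0 to 18 per tumour, too few for the filter on low counts, so 9 of the 10 markers were tested in culture and 9 in tumours. Exons of YAP1, WWTR1, TWIST1, ZEB2, ZEB1, SNAI2 and CD44 overlap genes on the opposite strand over 10.1%, 9.05%, 7.06%, 4.97%, 4.58%, 3.69% and 1.54% of their length, and whether counting used strand is not stated, so reads there cannot be assigned. TPM levels in tumours were not compared with those in culture, since the tables were normalised separately.

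The order of levels changed with doxycycline in both hairpin lines. In the shAMB line with DMSO, TWIST1 (82.7 ± 6.55 TPM) lay above ZEB1 (63.4 ± 2.74 TPM) with no overlap. With doxycycline the order was turned, with ZEB1 at 77.4 ± 3.23 TPM and TWIST1 at 53.1 ± 2.07 TPM. FN1 and ZEB2 changed places as well, from 13.7 and 12.1 TPM with DMSO to 10.4 and 15.1 TPM, and so did YAP1 and SNAI2, from 3.69 and 2.24 TPM to 3.13 and 4.20 TPM, in each case with no overlap. In the sh4 line with doxycycline, YAP1 reached 6.11 ± 0.765 TPM and overlapped CD44 at 5.2 ± 0.498 TPM, which it had stayed below in the other cultures.

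**Figure D1:**
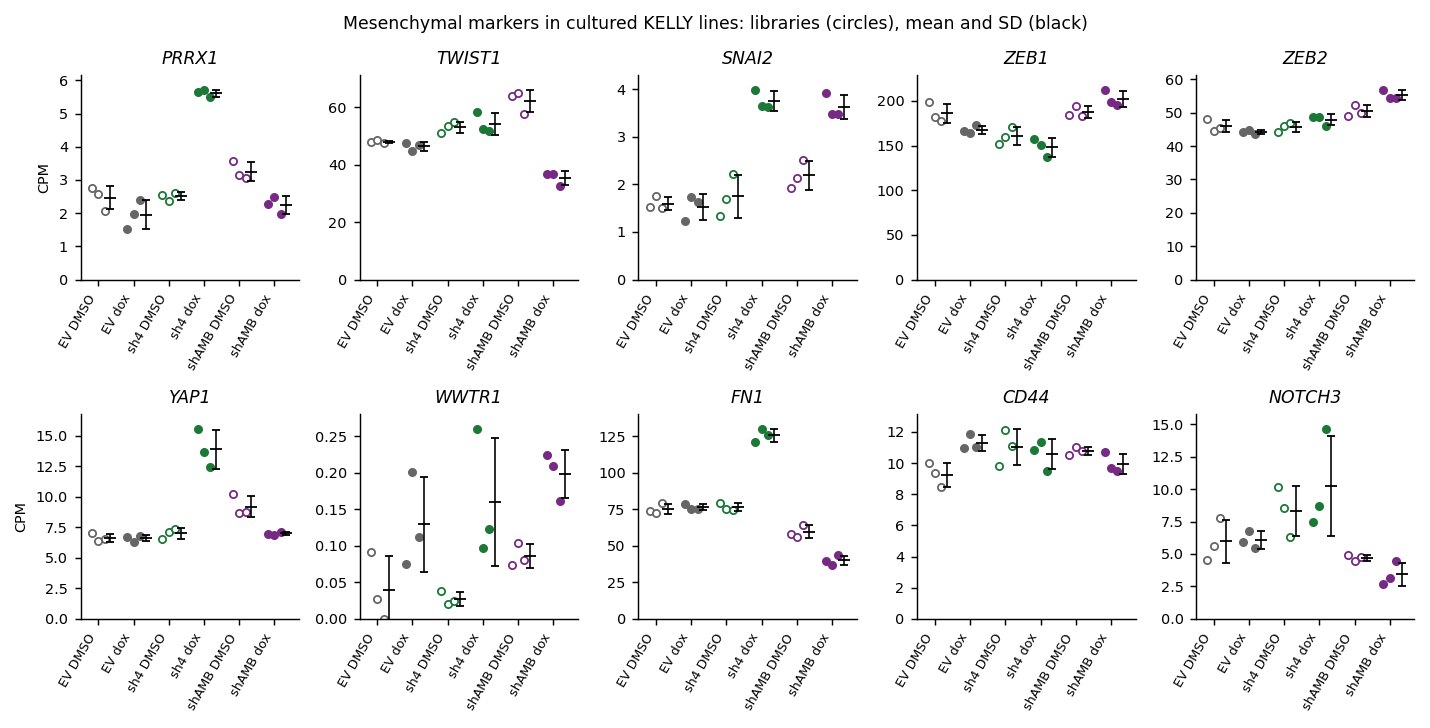
CPM of each marker in the 18 culture libraries, by line and treatment (dox, doxycycline). Circles are libraries, filled for doxycycline, and black marks give the mean and SD of 3 libraries. PRRX1, SNAI2, YAP1 and FN1 are above DMSO in all 3 sh4 libraries with doxycycline, and TWIST1, FN1, PRRX1 and YAP1 are below DMSO in all 3 shAMB libraries.

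Doxycycline alone was examined in the EV line. Of the 9 tested markers 0 passed an adjusted p of 0.05 in edgeR's quasi-likelihood test, beside 0.0134% of all 14905 genes called higher and 0.0805% called lower. At an unadjusted p under 0.05, 3 markers and 879 genes passed, and DESeq2 called 0 markers, again with 3 at an unadjusted p under 0.05. Log2 fold changes lay between -0.34 ± 0.15 for PRRX1 and 0.29 ± 0.09 for CD44 (both adjusted p = 0.672). CD44 stood at 9.99, 9.33 and 8.45 CPM with DMSO and at 11, 11.9 and 11 CPM with doxycycline, so its groups did not overlap. ZEB1 did not overlap either, with 198, 182 and 178 CPM against 167, 164 and 173 CPM, whereas the PRRX1 groups overlapped.

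In the sh4 line, 4 of the 9 markers rose with doxycycline and 0 fell, where 22.9% of all genes rose and 18% fell. The 4 were PRRX1, SNAI2, YAP1 and FN1. The median log2 fold change was 0.30 over the 9 markers and -0.0046 over all genes. In bulk RNA, more cells that express a gene and more RNA per cell cannot be told apart.

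PRRX1 (chr1:170662768-170739421) rose from 2.56, 2.38 and 2.60 CPM with DMSO to 5.64, 5.70 and 5.50 CPM with doxycycline, on 106 to 293 reads per library. The 3 doxycycline libraries lay within a narrow range far above DMSO, a 2.24-fold change (log2 1.16 ± 0.14, adjusted p = 7.8e-06). SNAI2 rose from 1.33, 1.69 and 2.23 CPM to 3.99, 3.64 and 3.63 CPM, with the widest spread among the DMSO libraries, a 2.16-fold change (log2 1.11 ± 0.17, adjusted p = 6.4e-05). YAP1 (chr11:102110447-102233424) stood at 6.52, 7.16 and 7.39 CPM with DMSO and at 15.6, 13.7 and 12.4 CPM with doxycycline, a 1.98-fold change (log2 0.98 ± 0.09, adjusted p = 4.4e-07), also without overlap. FN1 (chr2:215360865-215436068), the most abundant of the 4, rose from 79.5, 75.5 and 74.9 CPM to 121, 129.9 and 126 CPM, a 1.64-fold change (log2 0.71 ± 0.06, adjusted p = 2.2e-07). Without doxycycline replicate 3 the log2 fold changes were 1.18 for PRRX1, 1.13 for SNAI2, 1.06 for YAP1 and 0.71 for FN1, and all 4 stayed called.

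The other 5 tested markers were not called in the sh4 line. TWIST1 stood at 50.9, 53.5 and 54.7 CPM with DMSO and 58.5, 52.5 and 51.6 CPM with doxycycline, and its log2 fold change of 0.03 had a 95% interval from -0.10 to 0.16. CD44 overlapped as well, at 9.80, 12.1 and 11.1 CPM against 10.9, 11.3 and 9.47 CPM (log2 -0.06, interval -0.26 to 0.14). ZEB1 and ZEB2 overlapped between treatments, with log2 fold changes of -0.12 (interval -0.24 to 0.01) and 0.07 (interval -0.03 to 0.16). NOTCH3 was the most variable, at 10.1, 8.52 and 6.29 CPM with DMSO and 7.46, 8.66 and 14.6 CPM with doxycycline, with the highest value in the library that stood apart. Its log2 fold change was 0.30 ± 0.25, and -0.05 without that library. When trends with GC content and gene length were removed from each library, 8 markers were called. Beside them 4114 of 14905 genes were called higher and 4028 lower, against 3410 and 2681 in the main fit. NOTCH3 joined the markers that rose (log2 0.51), and CD44, ZEB1 and ZEB2 were lower (-0.17, -0.29 and -0.12). In the TPM values TWIST1 (0.20) and ZEB2 (0.38) were higher. There the median of all genes was raised by 0.14 and 80.6% of the called genes were higher, against 56.0% in the main fit.

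In the shAMB line, 4 of the 9 markers fell with doxycycline and 2 rose, where 28.4% of all genes fell and 37.6% rose. TWIST1, FN1, PRRX1 and YAP1 fell, and SNAI2 and ZEB2 rose. The median was -0.39 over the markers and 0.096 over all genes. In the TPM values 73.0% of the called genes were higher, against 56.9% here, and the median of all genes was raised by 0.14.

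TWIST1 (chr7:19113047-19117636) fell from 63.9, 65.0 and 57.8 CPM with DMSO to 36.8, 36.6 and 32.5 CPM with doxycycline, a 1.76-fold decrease (log2 -0.82 ± 0.06, adjusted p = 1.8e-08). FN1 fell from 58.4, 55.8 and 64.5 CPM to 39.7, 36.8 and 43.5 CPM, a 1.49-fold decrease (log2 -0.57 ± 0.06, adjusted p = 1.2e-06). Both were separated from DMSO by more than the spread of either group. PRRX1 stood at 3.57, 3.15 and 3.05 CPM against 2.28, 2.48 and 1.96 CPM, a 1.45-fold decrease (log2 -0.53 ± 0.15, adjusted p = 0.00443). YAP1 stood at 10.2, 8.66 and 8.75 CPM against 6.99, 6.89 and 7.13 CPM, a 1.31-fold decrease (log2 -0.39 ± 0.09, adjusted p = 0.00154). The doxycycline levels of YAP1 lay close to those of the EV line, while its DMSO levels lay above them, and on the TPM scale its decrease was not called (log2 -0.20, adjusted p = 0.0706 with limma).

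SNAI2 was the 1 marker that rose in both hairpin lines. Under shAMB it went from 1.92, 2.13 and 2.51 CPM to 3.92, 3.48 and 3.48 CPM, a 1.66-fold increase (log2 0.73 ± 0.17, adjusted p = 0.00122). ZEB2 (chr2:144384081-144520119) rose by less, from 49.1, 52.5 and 50.0 CPM to 56.9, 54.5 and 54.6 CPM (log2 0.13 ± 0.04, adjusted p = 0.0177), close to the median of all genes. Its call was lost with size factors of the RLE kind (log2 0.06, adjusted p = 0.356) and without shAMB DMSO replicate 1 (0.11), DMSO replicate 3 (0.12) or doxycycline replicate 1 (0.11), with adjusted p from 0.0607 to 0.081. ZEB1 did not overlap between treatments, at 185, 195 and 183 CPM against 213, 198 and 195 CPM, yet was not called (log2 0.11 ± 0.06, adjusted p = 0.119). CD44 overlapped, with a log2 fold change of -0.11 (interval -0.31 to 0.09). NOTCH3 stood at 4.90, 4.44 and 4.76 CPM with DMSO and at 2.71, 3.15 and 4.43 CPM with doxycycline and was not called (log2 -0.46 ± 0.26, adjusted p = 0.138), but was called lower with trends in GC content and length removed (log2 -1.51) and in a fit of the shAMB groups alone (log2 -0.54, adjusted p = 0.0142).

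WWTR1, the paralog of YAP1, rested on single reads. The sh4 line had 2, 1 and 1 reads with DMSO and 11, 5 and 5 with doxycycline, and the shAMB line 3, 4 and 3 against 10, 12 and 7. The EV line showed 4, 1 and 0 against 3, 8 and 4 reads. Values with doxycycline were above all DMSO values in both hairpin lines, on counts too low for a test.

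**Figure D2:**
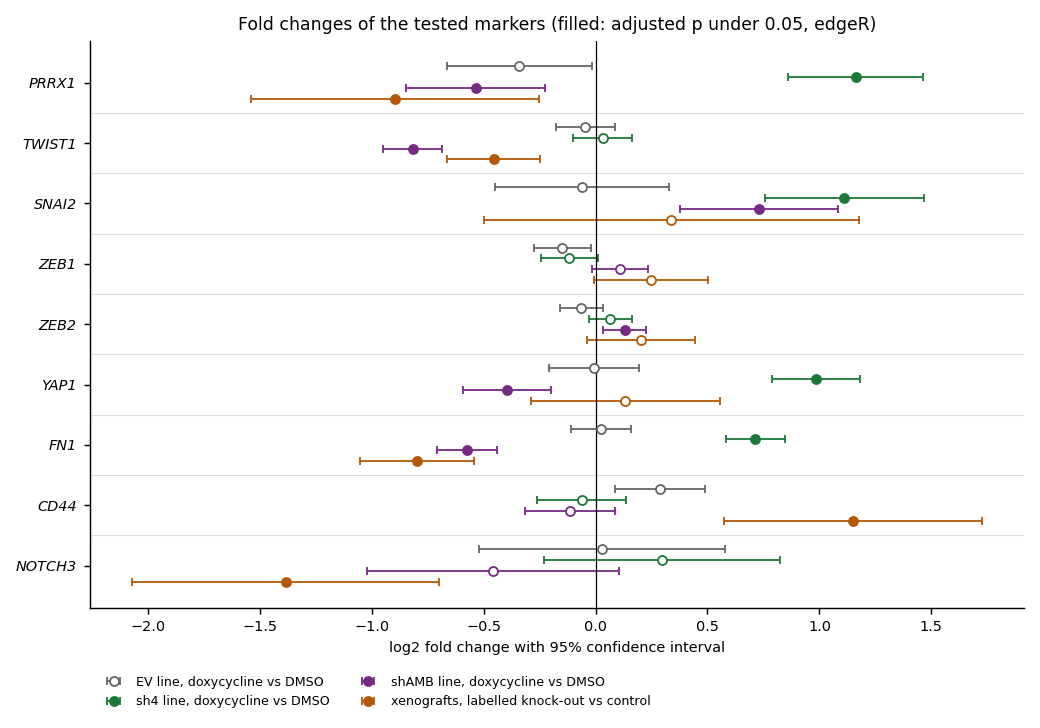
Log2 fold change of the 9 tested markers in the EV, sh4 and shAMB lines and in the xenografts, with 95% confidence intervals, filled where the adjusted p was under 0.05 in edgeR. PRRX1, YAP1 and FN1 lie right of 0 in the sh4 line and left of 0 in the shAMB line, SNAI2 lies right of 0 in both, and CD44 lies right of 0 in the xenografts.

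Since each hairpin line was compared with its own DMSO cultures, the doxycycline responses were also set against that of the EV line in 1 model. These comparisons share the EV libraries. In the sh4 line 4 markers responded more than in the EV line and 0 less, beside 17.8% and 14.7% of all genes. The differences in log2 response were 1.5 ± 0.21 for PRRX1 (adjusted p = 5.5e-05), 1.17 ± 0.25 for SNAI2 (adjusted p = 0.00203), 0.99 ± 0.13 for YAP1 (adjusted p = 3.9e-05) and 0.69 ± 0.09 for FN1 (adjusted p = 2.8e-05). In the shAMB line 3 markers were higher and 4 lower relative to the EV response, beside 23.7% and 21.7% of all genes. Lower were TWIST1 (-0.77 ± 0.09, adjusted p = 3.9e-06), FN1 (-0.60 ± 0.09, adjusted p = 5.7e-05), CD44 (-0.40 ± 0.13, adjusted p = 0.0227) and YAP1 (-0.39 ± 0.13, adjusted p = 0.0255), and higher were SNAI2 (0.79 ± 0.25, adjusted p = 0.0159), ZEB1 (0.26 ± 0.08, adjusted p = 0.0204) and ZEB2 (0.19 ± 0.06, adjusted p = 0.021). The decrease of PRRX1 in the shAMB line did not differ from its change in the EV line beyond the error (-0.19, interval -0.64 to 0.25).

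The 4 calls of smallest size in the shAMB line against the EV line depended on single libraries. CD44 was not called without EV DMSO replicate 3, EV doxycycline replicate 2 or shAMB doxycycline replicate 2 or 3 (-0.34, -0.37, -0.38 and -0.37), nor YAP1 without EV DMSO replicate 2, EV doxycycline replicate 3 or shAMB DMSO replicate 1 (-0.36, -0.37 and -0.31). ZEB1 was not called without EV DMSO replicate 1, EV doxycycline replicate 2, shAMB DMSO replicate 3 or shAMB doxycycline replicate 1 (0.21, 0.24, 0.24 and 0.22), and ZEB2 not without EV DMSO replicate 1, EV doxycycline replicate 3, shAMB DMSO replicate 1 or 3, or shAMB doxycycline replicate 1 (0.16, 0.18, 0.17, 0.18 and 0.17). TWIST1, FN1 and SNAI2 stayed called in each of these fits.

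The responses of both hairpin lines were compared directly. Here 4 markers responded more in the sh4 line and 1 less, beside 27.8% and 33.1% of all genes. PRRX1 differed by 1.70 ± 0.20 on the log2 scale (adjusted p = 4.3e-06), YAP1 by 1.38 ± 0.13 (adjusted p = 3.6e-07), FN1 by 1.29 ± 0.09 (adjusted p = 1.2e-08) and TWIST1 by 0.85 ± 0.09 (adjusted p = 9.3e-07). For PRRX1, YAP1 and FN1 the difference was made up of a rise in the sh4 line and a fall in the shAMB line, and for TWIST1 of the fall in the shAMB line. SNAI2 rose in both, and its responses differed by 0.38 with an interval from -0.12 to 0.88 (adjusted p = 0.171). ZEB1 responded less in the sh4 line (-0.23 ± 0.08, adjusted p = 0.0304), a call lost without sh4 DMSO replicate 3 (-0.18), sh4 doxycycline replicate 3 (-0.14), shAMB DMSO replicate 1 (-0.21) or 3 (-0.21), or shAMB doxycycline replicate 1 (-0.19), and with RLE size factors (-0.16).

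The lines already differed before induction. With DMSO, 0 markers were called in the sh4 line against the EV line (0.597% of all genes higher and 0.523% lower, with 3 markers at an unadjusted p under 0.05 in edgeR), and DESeq2 also called 0, with 2 at an unadjusted p under 0.05. In the shAMB line YAP1 and TWIST1 were higher and FN1 was lower than in the EV line, beside 1.11% and 0.416% of all genes. YAP1 stood at 7.0, 6.37 and 6.51 CPM in the EV line and 10.2, 8.66 and 8.75 CPM in the shAMB line (log2 0.47 ± 0.09, adjusted p = 0.0147), and TWIST1 at 47.8, 48.4 and 47.5 CPM against 63.9, 65.0 and 57.8 CPM (log2 0.38 ± 0.06, adjusted p = 0.00365). FN1 stood at 74.2, 72.2 and 79.1 CPM against 58.4, 55.8 and 64.5 CPM (log2 -0.34 ± 0.06, adjusted p = 0.0103). The call of YAP1 was lost without EV DMSO replicate 2 (0.44) or 3 (0.46) or shAMB DMSO replicate 1 (0.39), and that of FN1 without EV DMSO replicate 3 (-0.30) or shAMB DMSO replicate 1 (-0.32) or 2 (-0.29).

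In the tumours, 1 of the 9 tested markers was higher in those labelled knock-out and 4 were lower, where 21.2% of all 15960 tested genes were higher and 19.9% lower. CD44 was higher, and NOTCH3, PRRX1, FN1 and TWIST1 were lower. The tumours grew in mice, and no step that set mouse reads apart is stated. Reads of host cells therefore cannot be told apart from those of KELLY cells. The median log2 fold change was 0.13 over the markers and 0.020 over all genes.

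CD44 (chr11:35139171-35232402) stood at 7.47, 12.0, 5.89 and 8.50 CPM in controls and at 10.8, 21.9, 23.0 and 19.4 CPM in tumours labelled knock-out. Knock-out replicate 1 lay below control replicate 2, so the groups overlapped, and the mean difference was 2.22-fold (log2 1.15 ± 0.26, adjusted p = 0.005). NOTCH3 (chr19:15159038-15200995) stood at 1.60, 3.00, 2.74 and 2.89 CPM against 1.52, 0.985, 0.841 and 0.577 CPM, on 30 to 173 reads per library, a 2.61-fold decrease (log2 -1.38 ± 0.31, adjusted p = 0.0047). Control replicate 1 lay just above the highest of the tumours labelled knock-out. FN1 stood at 29.5, 39.7, 33.3 and 35.8 CPM against 20.3, 21.5, 20.4 and 17.4 CPM, a 1.74-fold decrease (log2 -0.80 ± 0.12, adjusted p = 0.000369), and TWIST1 at 40.7, 35.6, 39.8 and 43.0 CPM against 29.4, 26.5, 29.4 and 30.8 CPM, a 1.37-fold decrease (log2 -0.45 ± 0.09, adjusted p = 0.00301). Neither FN1 nor TWIST1 overlapped between the groups. On the TPM scale with limma only CD44 and NOTCH3 of the 9 were called. The 0.5 added to each TPM there exceeded the tumour means of PRRX1 (0.29 in controls and 0.165 in those labelled knock-out), YAP1, SNAI2 and NOTCH3, which shrinks their changes. Control replicate 2 had the highest FN1 of the controls in CPM (39.7) and the lowest in TPM (1.51), so both scales differ for that library.

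PRRX1 stood at 2.09, 3.97, 2.01 and 2.01 CPM in controls and at 1.29, 1.11, 1.09 and 1.92 CPM in tumours labelled knock-out (log2 -0.90 ± 0.29, adjusted p = 0.03). The groups did not overlap. In CPM, control replicate 2 lay far above the other controls. In TPM the controls stood at 0.27, 0.33, 0.27 and 0.29 and the tumours labelled knock-out at 0.14, 0.19, 0.14 and 0.19, also without overlap. Without control replicate 2 the log2 fold change of the counts was -0.60 and was not called (adjusted p = 0.081). The call was also lost without knock-out replicate 2 (-0.81) or 3 (-0.82) and with the replicate number as a block (-0.86, adjusted p = 0.0705). The remaining markers were not called and overlapped between groups. YAP1 had a log2 fold change of 0.13 (interval -0.29 to 0.55), SNAI2 of 0.34 (interval -0.50 to 1.18, on 8 to 22 reads per library), ZEB1 (chr10:31318417-31529804) of 0.25 (interval -0.01 to 0.50) and ZEB2 of 0.20 (interval -0.04 to 0.44). Without knock-out replicate 1, which had the lowest ZEB1 of its group, ZEB1 was called higher (0.33, adjusted p = 0.0185). WWTR1 was at 0 to 0.346 CPM.

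**Figure D3:**
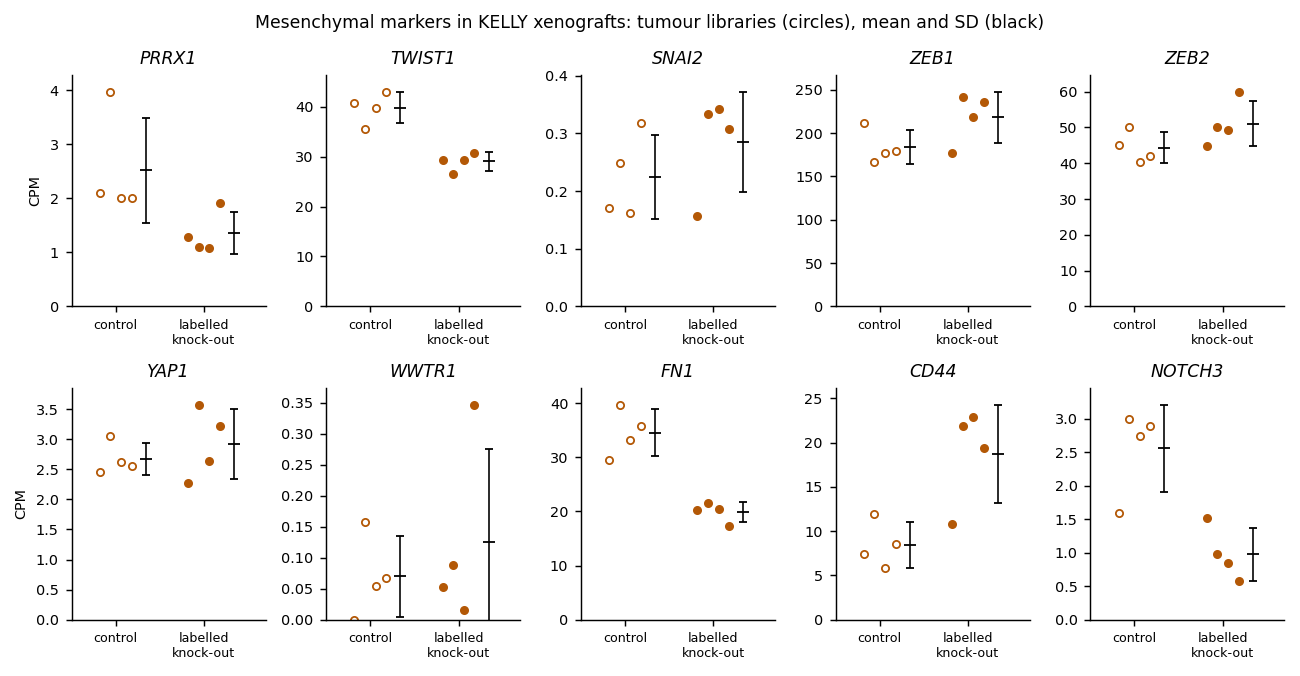
CPM of each marker in the 4 control tumours (open circles) and the 4 tumours labelled knock-out (filled circles), with mean and SD in black. FN1 and TWIST1 are lower in all 4 tumours labelled knock-out, CD44 is above 19 CPM in 3 of them, and 1 control lies apart for PRRX1.

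Side by side, TWIST1 and FN1 were lower with doxycycline in the shAMB line and in tumours labelled knock-out, as was PRRX1 with the limits given. YAP1 and SNAI2 were called in both hairpin lines and not in tumours, and CD44 and NOTCH3 were called in tumours and not in the main comparison of doxycycline with DMSO in either hairpin line, although CD44 was lower in the shAMB line relative to the EV response and NOTCH3 was called in the alternative fits given above. Differences between tumours and cultures were not tested.

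The wider programme was examined through lists of genes known from these pathways, whose counts stand beside 22.9% of all genes higher and 18% lower in the sh4 line, 37.6% and 28.4% in the shAMB line, and 21.2% and 19.9% in tumours. Several counts lay near these shares, and no test set a list apart from other genes. Of 37 tested genes of the mesenchymal state beyond the 10, 16 rose and 7 fell in the sh4 line (median log2 fold change 0.14), 18 rose and 10 fell in the shAMB line (median 0.48), and 12 were higher and 7 lower of 36 in tumours (median 0.32). TGFBI, a matrix protein induced by TGF-beta, rose in both hairpin lines (1.01 and 2.06), whereas POSTN, the matrix protein periostin, rose in the sh4 line (0.99) and fell in the shAMB line (-2.94). LGALS1, a galectin, fell in the sh4 line (-1.23) and rose in the shAMB line (1.31), and TPM2, a tropomyosin, rose in both (0.67 and 1.98) and was higher in tumours (2.00) together with NT5E (2.52) and S100A4 (2.19). VIM, the intermediate filament vimentin, which was picked out after its values were seen, was lower in all 3 comparisons (-0.35, -0.92 and -1.0, adjusted p = 0.000453, 8.3e-09 and 0.000187).

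Transcription factors of the mesenchymal state showed 8 higher and 4 lower of 19 in the sh4 line (median 0.11), 10 and 1 in the shAMB line (median 0.44) and 6 and 1 of 21 in tumours (median 0.25). ELK4, an ETS factor, went from 56.8 to 135 CPM in the sh4 line (log2 1.25) and BHLHE41, a circadian repressor, from 2.19 to 5.88 CPM (log2 1.43), while CREG1 fell (-0.98). Under shAMB the largest changes were in AEBP1 (1.82), the interferon-responsive factor IRF1 (1.35) and the AP-1 subunit FOSL2 (1.30). AEBP1 (0.87), IRF1 (1.29) and BHLHE41 (0.94) were also higher in tumours.

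YAP1 went up in 1 hairpin line and down in the other, and the count of its known targets that rose was the same in both. Of 21 tested targets of YAP1 and WWTR1, 12 rose and 3 fell in the sh4 line (median 0.58), 12 rose and 3 fell in the shAMB line (median 0.45), and 8 were higher and 1 lower of 17 in tumours (median 0.17). ANKRD1, a cardiac ankyrin repeat protein and classical target, went from 0.800 to 2.66 CPM in the sh4 line (log2 1.73) and from 1.64 to 4.43 CPM in the shAMB line (log2 1.43). AMOTL2, which is both a target and an inhibitor of YAP1, rose by 1.31 and 0.87, F3 (tissue factor) rose by 1.02 in the sh4 line, and NUAK2 (1.54) and ARHGEF17 (1.35) rose in the shAMB line. Among the Hippo components, 10 of 19 rose and 3 fell in the sh4 line (median 0.23), 8 rose and 2 fell in the shAMB line (median 0.12), and 4 were higher and 5 lower of 18 in tumours (median 0.018). The kinase STK3 and its scaffold SAV1 fell in the shAMB line, by 1.43 and 0.79 on the log2 scale, and rose in the sh4 line (0.35 and 0.44), and STK3 was lower in tumours (-1.23). The DNA-binding partner TEAD2 rose in the sh4 line (0.65) and was lower in tumours (-1.04), and the YAP1 inhibitor PTPN14 fell in the sh4 line (-0.65), rose in the shAMB line (0.58) and was higher in tumours (0.83).

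Components of TGF-beta signalling, which induces SNAI2 and FN1 in many cells, showed 10 higher and 1 lower of 14 in the sh4 line (median 0.41), 7 and 4 in the shAMB line (median 0.24) and 6 and 2 in tumours (median 0.26). In the sh4 line the ligand TGFB2 (0.97), the coreceptor TGFBR3 (0.97) and the pseudoreceptor BAMBI (0.91) rose, and in the shAMB line TGFB2 (0.41) and TGFBR3 (0.32) rose and BAMBI fell (-0.16). The signalling receptor TGFBR2 rose in the sh4 line (0.49), fell in the shAMB line (-1.23) and was lower in tumours (-1.61), while the inhibitor SMAD7 fell in the sh4 line (-0.30) and was higher in the other 2 comparisons (0.73 and 0.91), as was TGFBR3 in tumours (1.01), and TGFB1 rose in the shAMB line (0.74).

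Around NOTCH3, several Notch ligands rose in both hairpin lines or in 1 of them. Of 20 tested components other than NOTCH3, 10 rose and 5 fell in the sh4 line (median 0.21), 15 rose and 2 fell in the shAMB line (median 0.68), and 8 were higher and 1 lower of 21 in tumours (median 0.21). The ligand DLL1 went from 1.48 to 8.09 CPM in the shAMB line (log2 2.44), and rose by 0.74 in the sh4 line and 1.97 in tumours. The ligand JAG1 rose in both hairpin lines (1.10 and 1.12) and was higher in tumours (1.69), JAG2 rose in the shAMB line (1.12) and was higher in tumours (1.20), DTX1 rose in the shAMB line (1.21), and the receptor NOTCH2 rose in the sh4 line (0.98) and fell in the shAMB line (-0.94).

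For FN1 and CD44, a list of receptors, ligands, anchors and hyaluronan synthases showed 9 higher and 3 lower of 14 in the sh4 line (median 0.52), 5 and 8 in the shAMB line (median -0.28) and 3 and 5 in tumours (median -0.08). This list also held the splicing regulators ESRP1 and ESRP2, which stand in the list of epithelial genes as well. ITGA5, a subunit of the fibronectin receptor, rose in both hairpin lines (1.74 and 1.60). HAS3, a hyaluronan synthase, rose in both as well (0.83 and 1.07). HAS2, another such synthase, rose in the sh4 line (0.80) and fell in the shAMB line from 1.48 to 0.360 CPM (log2 -2.03) and was lower in tumours, at 0.745 against 6.07 CPM (log2 -3.02). ITGA4, another fibronectin receptor subunit, rose in the sh4 line (0.45), fell in the shAMB line (-1.27) and was lower in tumours (-0.97). MSN, which ties CD44 to actin, was lower in all 3 comparisons (-0.32, -0.78 and -1.23).

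Of the epithelial genes that ZEB and SNAI factors repress, 6 of 19 passed the filter on low counts in culture, and 4 rose in the sh4 line (median 0.94) and 3 in the shAMB line (median 0.78), with 0 lower. In tumours 4 of 9 were higher (median 0.68) and 0 lower. GRHL1 rose in both hairpin lines (0.37 and 0.84) and was higher in tumours (0.68), KRT19 rose in the shAMB line (1.09), and GRHL2 was higher in tumours (1.35). Adrenergic genes split in the sh4 line, with 8 of 19 higher and 7 lower (median 0.06), while 11 were higher and 4 lower in the shAMB line (median 0.42) and 7 were higher and 3 lower in tumours (median 0.09). Their summed level in tumours was 3351 to 4878 CPM in those labelled knock-out and 4087 to 5086 CPM in controls. TH, the first enzyme of catecholamine synthesis, went from 16.0 to 6.12 CPM in the sh4 line (log2 -1.40) and from 7.56 to 39.8 CPM in the shAMB line (log2 2.39). DDC, the next enzyme, was lower in all 3 comparisons (-0.71, -0.58 and -0.58), HAND1 rose in the sh4 line (0.93), PHOX2A (1.56) and TBX2 (1.16) rose in the shAMB line, and CHGB (1.10), INSM1 (1.02) and KLF7 (0.94) were higher in tumours. In all of these lists, as for the markers, medians over all genes were -0.0046 in the sh4 line, 0.096 in the shAMB line and 0.020 in tumours.

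**Figure D4:**
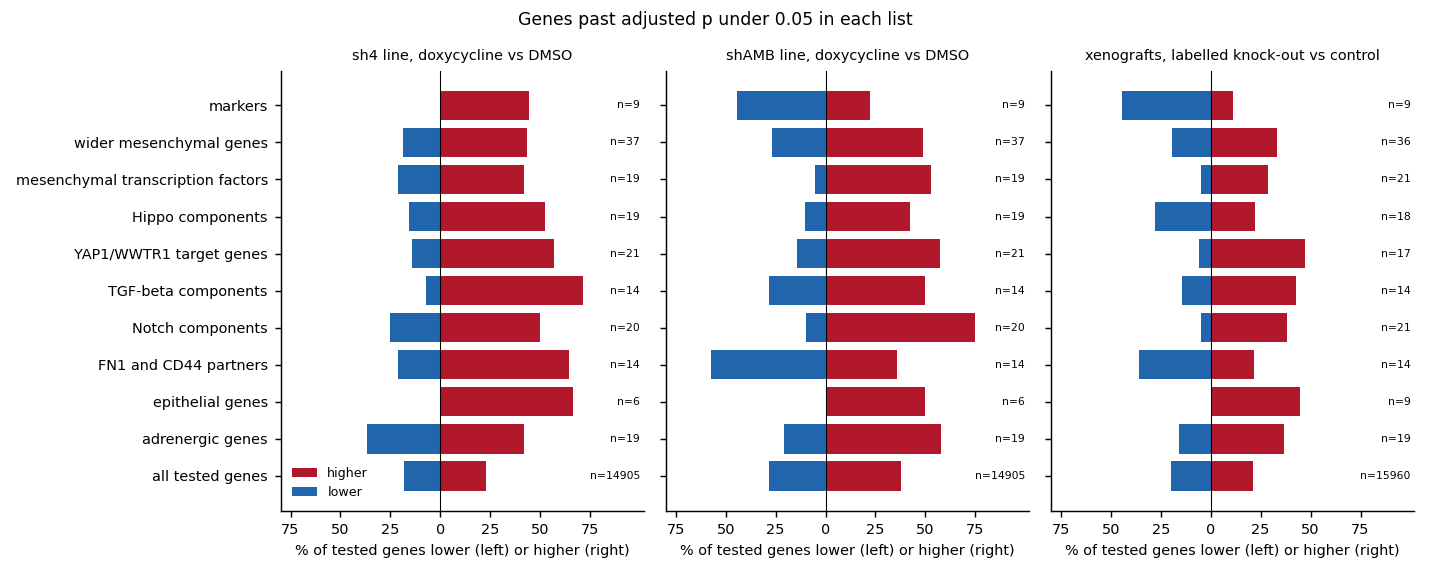
Share of the tested genes of each list that were higher (red) or lower (blue) at an adjusted p under 0.05 in both hairpin lines and the xenografts, with all tested genes in the bottom row. The markers lie to the right only in the sh4 line and more to the left in the other 2. Most other lists, YAP1 and WWTR1 targets and Notch components among them, reach further to the right than to the left in all 3. All tested genes do so too.

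Genes used as markers of other cell types moved beside some of these results. The cultures were of the KELLY line, in which the pericyte gene RGS5 averaged 10027 CPM in the EV line with DMSO. A list of 7 fibroblast genes summed to 43.1 to 52.4 CPM with DMSO and 68.2 to 86.9 CPM with doxycycline in the sh4 line, with COL3A1 (log2 0.63) rising beside FN1, and to 47.9 to 56.3 CPM against 34.5 to 41.2 CPM in the shAMB line, with COL3A1 (log2 -1.23) falling beside FN1. Of the same list, COL1A1 (0.85) and PDGFRA (0.89) also rose in the sh4 line, while LUM fell (-1.12). In the shAMB line COL1A1 went against COL3A1, at a mean of 8.92 CPM with DMSO and 14.4 CPM with doxycycline. Another gene of the list, FAP, was at 0 in these 4 groups. Of the fibroblast genes 3 rose and 1 fell of 4 tested in the sh4 line, 1 rose and 2 fell in the shAMB line, and 0 of 5 were called in tumours, where the sums were 15.7 to 27.3 CPM in controls and 20.3 to 32.5 CPM in those labelled knock-out. The 7 pericyte genes were led by RGS5, which made up nearly the whole sum of 10476 to 11543 CPM with DMSO and 4067 to 4587 CPM with doxycycline in the shAMB line, and of 8003 to 10284 CPM against 2426 to 3051 CPM in tumours. For sh4 these sums were 8220 to 9372 CPM against 8249 to 9974 CPM. Of 7 pericyte genes tested, 3 rose and 0 fell in the sh4 line, 3 rose and 1 fell in the shAMB line, and 3 were higher and 1 lower in tumours. Endothelial genes summed to at most 2.52 CPM, leukocyte genes to at most 2.79 CPM and Schwann cell genes to at most 10.1 CPM in any library, and few of them passed the filter. With sh4, 1 of 2 endothelial genes fell, 2 of 3 Schwann cell genes rose and 0 of 1 leukocyte genes were called. With shAMB 1 endothelial gene rose and 1 fell, and 1 Schwann cell and 1 leukocyte gene rose. In tumours 1 of 4 endothelial genes was higher and 1 lower, 1 of 5 Schwann cell genes was higher and 2 lower, and 0 of 2 leukocyte genes were called. Whether the fibroblast and pericyte genes had a part in the results for FN1, PRRX1 or TWIST1 was not tested.

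Across the 18 culture libraries, PRRX1 and YAP1 followed each other more closely than any other pair of markers did in the same direction (Pearson r = 0.928 of log2 CPM, a description over libraries that share lines and treatments). ZEB1 and NOTCH3 ran in opposite directions (r = -0.946), as did ZEB1 and FN1 (r = -0.859), while NOTCH3 and FN1 ran together (r = 0.852). ZEB1 and NOTCH3 also ran in opposite order among replicates of the same treatment. In the sh4 line with DMSO, NOTCH3 stood at 10.1, 8.52 and 6.29 CPM and ZEB1 at 152, 159 and 171 CPM. Only in the shAMB line with DMSO was the order not fully opposite. The correlations thus include differences between replicates, and whether any of these genes are regulated together was not tested. Among 12708 genes, those most like PRRX1 were AS3MT (r = 0.959), HOXD13 (0.941) and ZNF558 (0.936), and those most like YAP1 were ZNF558 (0.962), AS3MT (0.957) and TNFRSF10B (0.955). FN1 was most like BEND3 (0.984), APCDD1 (0.982) and GNL3L (0.98), and TWIST1 most like NEFL (0.974), PCDHB10 (0.945) and GOLGA7 (0.939). SNAI2 was most like RAB31 (0.956), OTUD1 (0.949) and UBE2H (0.946), ZEB1 like SCG3 (0.976), EIF3J (0.972) and TBL1XR1 (0.97), and ZEB2 like PPP2R2A (0.965), FNBP1L (0.956) and ANLN (0.952). NOTCH3 was most like MKNK2 (0.979), TSPAN11 (0.976) and LRRC8A (0.968), and CD44 had the weakest likeness, to SERGEF (0.797), MORN4 (0.666) and C1orf61 (0.641).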

How the data were processed

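RNA from 18 cultures and 8 xenograft tumours was sequenced as paired reads. The authors aligned reads to hg38, with STAR, SAMtools and RSEM named in the submitters' processing notes, and deposited expected counts and TPM per gene for 26485 gene symbols. Of the expected counts, 91.8% in the culture table and 91.0% in the tumour table were whole, and all were rounded. The column heads Neg and Pos were taken to mean DMSO and doxycycline, which nothing else states. Genes were filtered with filterByExpr, scaled by TMM and tested with edgeR 4.0.16 (quasi-likelihood, R 4.3.3), with all 6 culture groups in 1 fit and the tumours in another, and p-values were adjusted by Benjamini-Hochberg over all tested genes, with calls at 0.05. Alternatives were RLE size factors, no filter, DESeq2 1.42.0, limma 3.58.1 on log2(TPM + 0.5), GC and length trends removed, a replicate block, only the groups compared, a log2 fold change of at least 1 and each library left out. The code was tested on simulated data. The members and lists were chosen with earlier results of these data known. The text names the 10 markers and RUNX1T1, the 3 genes of each list with the largest change among those called at a mean of at least 1 CPM, and the 3 genes most correlated with each marker. Of the YAP1 target list 23 of 25 symbols were in the table, and of 13 mitochondrial genes 0 were.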

Additional observations from a re-analysis of the deposited data

Results flagged for a closer look

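PRRX1 in the control tumours had 1 library far from the others, at 3.97 CPM where the other 3 lay between 2.01 and 2.09 CPM, so that the gap made up 0.957 of the group's range. In TPM the same library stood at 0.33, where the other 3 lay between 0.27 and 0.29. Chance marks about 1 in 20 groups in this way, and 20 groups of tumours were checked. The response to doxycycline differed between the sh4 and EV lines by the interaction term in edgeR for PRRX1 (log2 difference 1.5), SNAI2 (1.17), YAP1 (0.99) and FN1 (0.69). It differed between the shAMB and EV lines for TWIST1 (-0.77), FN1 (-0.60), CD44 (-0.40), YAP1 (-0.39), SNAI2 (0.79), ZEB1 (0.26) and ZEB2 (0.19). Between the sh4 and shAMB lines the responses differed for PRRX1 (1.70), YAP1 (1.38), FN1 (1.29), TWIST1 (0.85) and ZEB1 (-0.23).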

How the results depend on the processing

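For the 48 log2 fold changes of the markers that were followed through 777 alternative fits, 688 kept their direction and their side of the threshold, 63 lost the call, 16 gained it and 10 changed sign, and where no value shows a cause, the cause was not tested. With a log2 fold change of at least 1 required, which is stricter by construction, the genes called fell from 14 to 0 in the EV line, 6091 to 750 in the sh4 line, 9840 to 2662 in the shAMB line, 4856 to 838 for sh4 against EV responses, 6776 to 1892 for shAMB against EV, 9078 to 3226 for sh4 against shAMB, 167 to 34 and 227 to 40 for the sh4 and shAMB lines against EV with DMSO, and 6555 to 2002 in tumours. The markers called were then 2, 0, 2, 0, 3, 0 and 2 for the sh4 line, the shAMB line, sh4 against EV, shAMB against EV, sh4 against shAMB, the shAMB line with DMSO and tumours. With GC and length trends removed, 61 genes were called in the EV line, 790 in the sh4 line with DMSO and 811 in the shAMB line with DMSO. The markers called were then 8, 7 and 1 in the sh4 line, for sh4 against EV and in the sh4 line with DMSO. In the sh4 line 4114 genes were then higher and 4028 lower, and for sh4 against EV 3282 and 3318. Together with the replicate block, 52, 678 and 785 genes were called in the EV line and in the sh4 and shAMB lines with DMSO. The markers were again 8, 7 and 1. With only the groups compared, which leaves fewer libraries, 6 genes were called in the EV line, 3727 in the sh4 line, 23 in the sh4 line with DMSO and 85 in the shAMB line with DMSO, with 1 marker in the last. DESeq2 called 351 genes in the sh4 line with DMSO, and limma on TPM 2125 genes and 2 markers in tumours. Leaving out each library gave 7 to 14 genes in the EV line, 3753 to 7557 for sh4 against EV (7557 without sh4 doxycycline replicate 3), 75 to 269 in the sh4 line with DMSO (269 without EV DMSO replicate 3) and 125 to 188 genes with 1 to 3 markers in the shAMB line with DMSO. In the sh4 line values that were not called changed sign on the TPM scale for CD44 (0.10) and ZEB1 (0.056), with GC and length trends removed for ZEB2 (-0.12, and -0.12 with the block, both called lower), and on leaving out a library for CD44 (-0.15 to 0.014), NOTCH3 (-0.047 to 0.48) and TWIST1 (-0.027 to 0.064). In the shAMB line CD44 changed sign on the TPM scale (0.056). The share of called genes that were higher also moved with scaling, from 54.8% to 83.5% (TPM) for sh4 against EV, 52.2% to 76.5% (TPM) for shAMB against EV, 51.6% to 72.4% (TPM) in tumours, 53.3% to 40.9% (TPM) in the sh4 line with DMSO, 72.7% to 58.2% (GC) in the shAMB line with DMSO and 14.3% to 27.9% (GC) in the EV line. Replicates with the same number did not deviate together (correlations from -0.603 to 0.374), so the numbers do not pair the libraries, and with a replicate block 5974 genes and 4 markers were called in the sh4 line, 9756 and 6 in the shAMB line and 4929 and 4 in tumours. Depth limits WWTR1, and SNAI2 in tumours.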
